A study of Homo sapiens with 6 samples.

Results

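The eukaryotic translation initiation factor genes were compared between cells transfected with mimics of the microRNA miR-27a-3p, that is short synthetic RNA duplexes built to act as that microRNA, and cells transfected with a negative control called NC. The genes were taken by name, as every gene of the deposited table whose name starts with EIF followed by a digit from 1 to 6. Names of the EIF2AK kinases, names with a hyphen and names ending in P and digits were left out, which gave 48 of 58174 genes. Of the 130 names that start this way, 75 ended in P and digits, and 3 of these are EIF4EBP1, EIF4EBP2 and EIF4EBP3, which are protein-coding genes and are described with the other translation genes. Each group holds 3 samples of cells labelled Huh-7, the name of an established human hepatoma line, taken 48 h after a lipid transfection. No label tells if samples were cultured apart, and p-values thus cover only the spread among these 6 samples, which may be technical. Values are FPKM, which scale the fragments of a gene by its length and by the depth of the library, and log2 fold changes are mimic against control on log2(FPKM + 0.5), a scale that understates the change of low genes. Adjusted p-values are from limma with Benjamini-Hochberg adjustment over all 14439 genes whose mean reached 1 FPKM, and a gene is said to rise or fall where the adjusted p is under 0.05.

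Initiation starts when eIF2 brings the initiator tRNA, bound with GTP, to the small ribosomal subunit, where eIF1, eIF1A, eIF3 and eIF5 also bind. The mRNA is recruited through eIF4F, which is made of the cap-binding protein eIF4E, the scaffold eIF4G and the RNA helicase eIF4A, and the loaded subunit then scans for a start codon. After start codon recognition eIF5 triggers GTP hydrolysis by eIF2, eIF5B helps the large subunit to join, and eIF2B reloads eIF2 with GTP. Tumour cells are known to depend on these factors for growth, and eIF4E and its binding proteins are classic endpoints of mTOR signalling.

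The implied depth was 16980000 to 21170000 fragments in the control samples and 25080000 to 31080000 in the mimic samples, as estimated from the smallest step between FPKM values. Only 11.7% to 15.3% of low values were whole multiples of that step, so it may not be the value of 1 fragment. These depths, and their difference between the groups, are therefore not established, and numbers of reads could not be had back. Mitochondrial genes took 16.9% to 32.8% of summed FPKM in the controls and 14.6% to 38.9% with the mimic, and the highest share of each group was that of sample 3. The label of the line was checked against 12 liver and hepatoma markers, and none reached a mean of 1 FPKM. APOB, APOH, TTR and GPC3 were listed at 0 in all 6 samples, ALB and AFP did not exceed 0.024 FPKM, and the summed level of the list was 1.15 to 2.15 FPKM in control and 0.912 to 1.27 FPKM in mimic samples. The data therefore go against the labelled hepatoma identity, and the cells are called the cells labelled Huh-7 here. Of 6 blood cell markers, CD68 alone had a mean of 1 FPKM or more (list sum 7.66 to 9.10 in control and 10.8 to 19.0 in mimic samples), and of 6 fibroblast and endothelial markers, COL1A1 alone had one (list sum 18.4 to 20.7 in control and 7.43 to 10.0 in mimic samples). The part of these differences in the results was not tested.

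Of the 48 initiation factor genes, 44 were tested, and 18 of them rose (40.9%) while 5 fell (11.4%) in mimic samples. Over all 14439 genes tested, 12% were called higher and 39.6% lower. The members are mostly strongly expressed protein-coding genes, so a nearer background, chosen after the values were seen, is the 6204 protein-coding genes whose mean reached 10 FPKM, of which 19.2% were called higher and 24.7% lower. The median log2 fold change was 0.25 for the members, -0.29 for all genes tested and -0.01 for the nearer background.

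FPKM are relative to each library's total, so the direction of a small change depends on the scale. After median-of-ratios scaling, which sets the typical gene to no change, the median of all genes moved from -0.29 to 0.01, and 26.9% of all genes were called higher and 27.4% lower. On that scale 25 members were higher (56.8%) and 3 lower (6.82%), with a median of 0.57. The nearer background had 42.2% called higher and 14.6% lower, with a median of 0.31. The members had a larger share of higher calls and a smaller share of lower calls than either background, on both scales. Groups did not overlap in 29 members (65.9%), against 60.5% of all genes tested, a share close to the background. In bulk samples, fewer cells of a type and less RNA per cell cannot be told apart.

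**Figure D1:**
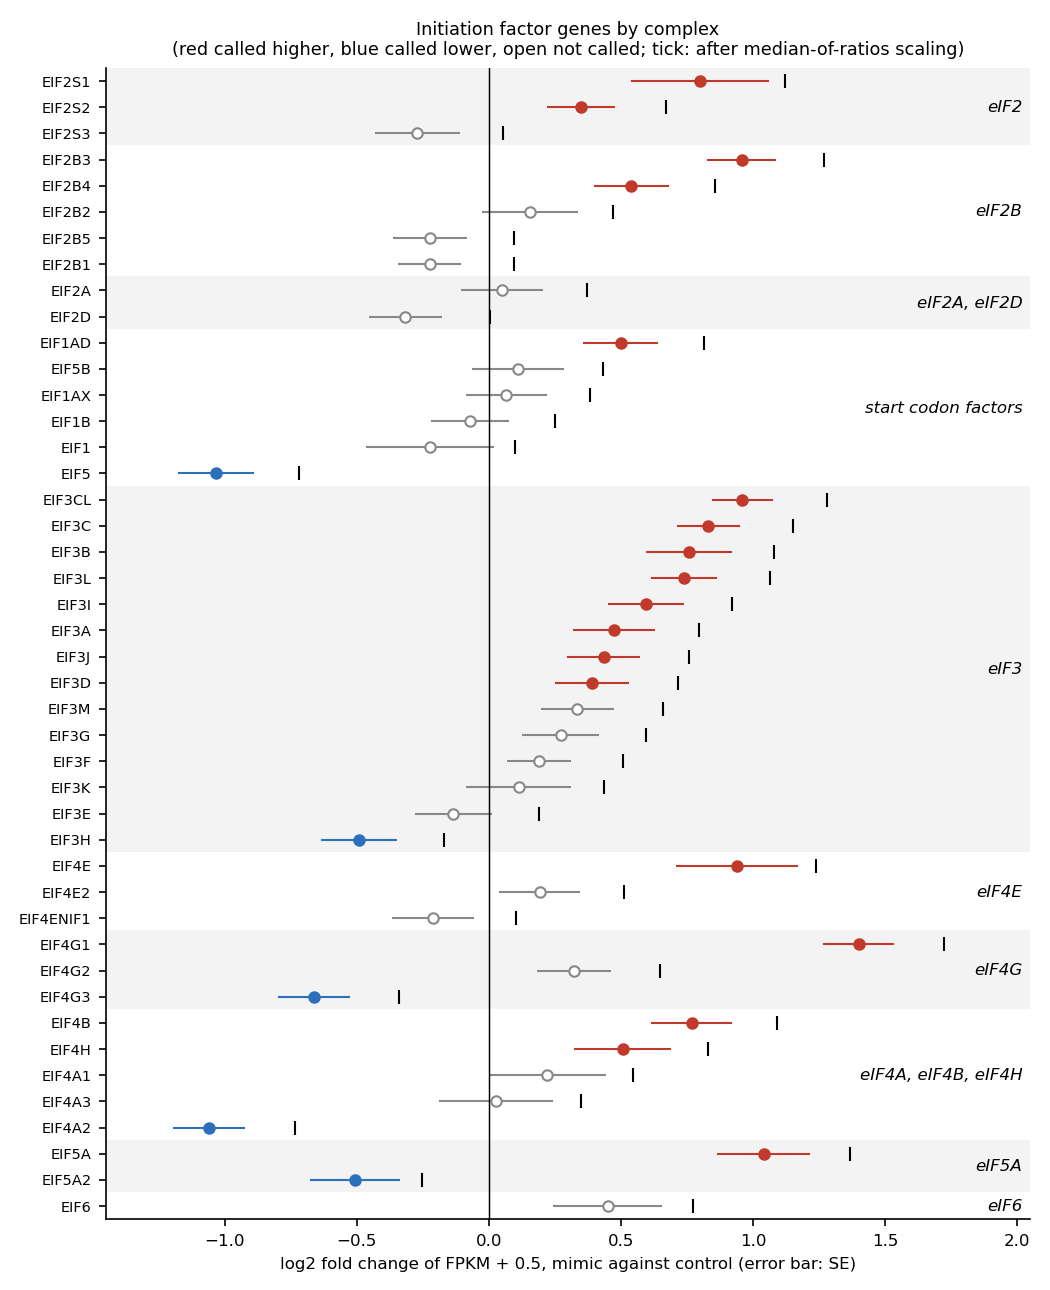
Log2 fold changes of the 44 tested initiation factor genes, mimic against control on log2(FPKM + 0.5), grouped by complex, with error bars of 1 SE. Red points were called higher, blue points lower and open points neither, and the black tick gives the same gene after median-of-ratios scaling, about 0.3 further to the right. EIF4G1 has the highest value, 1.40, and EIF4A2 and EIF5 the lowest, -1.06 and -1.03.

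The summed FPKM of the 48 genes was 2507, 2500 and 2332 in the 3 controls, in the order of their numbers, against 3416, 3105 and 2793 with the mimic. Every mimic sample lay above every control sample (exact permutation test over samples, p = 0.1, two-sided, the smallest value 3 against 3 can give). As a share of all FPKM, the genes made up 0.556%, 0.557% and 0.461% in control and 0.753%, 0.666% and 0.524% in mimic samples, and the groups overlapped (exact permutation p = 0.3). With the total taken over the other, non-mitochondrial genes, the shares were 0.669%, 0.682% and 0.686% in control and 0.882%, 0.879% and 0.857% in mimic samples, with no overlap (exact permutation p = 0.1). The low share of all FPKM in sample 3 of each group thus went with the high mitochondrial share of that sample.

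**Figure D2:**
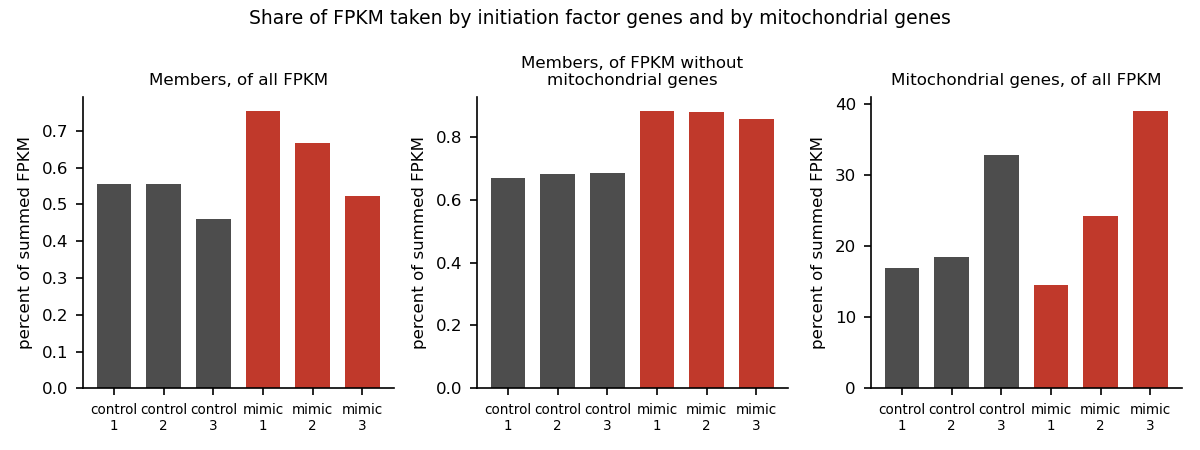
Percent of summed FPKM in each sample taken by the 48 initiation factor genes, by the same genes when the total leaves out mitochondrial genes, and by the mitochondrial genes. Grey bars are control samples 1 to 3 and red bars mimic samples 1 to 3. Without mitochondrial genes the control samples lie at 0.669% to 0.686% and the mimic samples at 0.857% to 0.882%.

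The transfected sequence and the seed matches among these genes show which members hold a site that the mimic could pair with. MicroRNAs pair with mRNAs mainly through the seed, bases 2 to 8, which stand in capitals in the mature sequence from RefSeq (GRCh38.p14, chr19:13836447-13836467, minus strand).
hsa-miR-27a-3p: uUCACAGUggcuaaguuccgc
The words searched in the longest 3' UTR of each gene in GENCODE 29 were ACTGTGAA (8mer), ACTGTGA (7mer-m8) and CTGTGAA (7mer-A1). All 44 tested members had an annotated 3' UTR, with a median length of 1386 bases against 1596 in all 11527 genes searched. An 8mer was found in 5 members (11.4%), EIF3H, EIF4G1, EIF5, EIF5A2 and EIF6, against 7.08% of all genes searched. Of these 5, EIF3H, EIF5 and EIF5A2 fell on the deposited scale, EIF4G1 rose and EIF6 was not called. After median-of-ratios scaling EIF5 alone was called lower, and EIF4G1 and EIF6 were called higher. EIF3H and EIF5A2 were not called there (adjusted p = 0.309 and 0.203). Of the 816 genes searched with an 8mer, 343 fell and 71 rose, with a median log2 fold change of -0.31, and of the 7886 with no match, 2397 fell and 1222 rose, with a median of -0.13.

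The 8mers of EIF5 and EIF5A2 are printed as examples from genes that fell on the deposited scale, with the seed match in capitals. The call of EIF5A2 was kept under 5 of 17 alternative settings. The 8mer of EIF3H, which also fell, is not printed; it is carried by 1 of 5 transcripts with a UTR, the principal one. The EIF5 site starts at base 2391 of a 3' UTR of 3973 bases (hg38, chr14:103343426-103343453, plus strand) and is carried by 1 of 3 transcripts with a UTR, all of them principal. A 7mer-m8 near the stop codon, at base 133 (chr14:103341167-103341194), is carried by all 3.
EIF5 8mer: atacatacagctatgtaACTGTGAAtaa
EIF5 7mer-m8: ttacactaaaaatctattACTGTGAgtg
EIF5A2 8mer: tagaacattttatttatACTGTGAAgac
The EIF5A2 site starts at base 2756 of a 3' UTR of 4945 bases (chr3:170890594-170890621, minus strand) and is carried by 1 of its 3 transcripts with a UTR. The 8mers of EIF4G1 and EIF6 are carried by 2 of 13 and 2 of 6 transcripts, none of them principal. Among the other members, 6 held a 7mer-m8 (3 higher, 0 lower), EIF2B4 held a 7mer-A1 and rose, and 32 held no match (13 higher, 2 lower). These are 13.6%, 2.27% and 72.7% of the tested members, against 11.9%, 12.6% and 68.4% of all genes searched. Of the 1374 genes searched with a 7mer-m8, 147 rose and 507 fell. Of the 1451 with a 7mer-A1, 179 rose and 518 fell. EIF4A2 and EIF4G3 are the members that fell with no match in the UTR searched.

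The genes of the trimeric factor eIF2 divided, with 2 of 3 higher. EIF2S1 encodes the alpha subunit, whose phosphorylation under stress lowers initiation. Control samples 1, 2 and 3 had 28.0, 27.6 and 16.3 FPKM, and mimic samples 1, 2 and 3 had 49.2, 46.3 and 30.0 FPKM, and values below keep this order (log2 fold change 0.80, SE 0.26, adjusted p = 0.0332). Sample 3 was the lowest of each group, but the groups did not overlap. The adjusted p became 0.0859 without control sample 3, 0.103 without mimic sample 1 and 0.105 without mimic sample 2.

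EIF2S2, the gene of the beta subunit, went from 69.7, 72.0 and 62.7 to 81.1, 89.3 and 90.0 FPKM (0.35, SE 0.13, adjusted p = 0.0496). The groups did not overlap, and the call lay at the threshold: the adjusted p was 0.0906 to 0.142 when any control sample, or mimic sample 2 or 3, was left out. EIF2S3, the gene of the GTP-binding gamma subunit and the most abundant of the 3, was at 172, 176 and 139 FPKM in control and at 146, 142 and 116 FPKM in mimic samples. These groups overlapped, and the gene was not called (-0.27, SE 0.16, adjusted p = 0.19). Its value was 0.05 after median-of-ratios scaling, and quantile normalization called it lower (-0.34, adjusted p = 0.0316), so that 1 of the 3 genes was higher and 1 lower there. The ratio of EIF2S1 to EIF2S3 within a sample, a pair chosen after the values were seen, was 0.163, 0.156 and 0.117 in control and 0.337, 0.327 and 0.258 in mimic samples, with no overlap (exact permutation p = 0.1). Because of that choice, the p-value of this ratio lends no support to a difference.

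Among the 5 subunit genes of eIF2B, the guanine nucleotide exchange factor of eIF2, 2 rose and 3 were not called. EIF2B3 (hg38, chromosome 1, 44850522 to 44986722, minus strand) encodes the gamma subunit, which forms the catalytic subcomplex with the epsilon subunit. It was at 9.77, 9.80 and 10.4 FPKM in the controls and at 22.5, 19.0 and 18.3 FPKM in mimic samples (0.96, SE 0.13, adjusted p = 0.000586). The control samples were close together, and the lowest mimic sample lay well above them. EIF2B4, the gene of the regulatory delta subunit, went from 20.3, 20.4 and 16.4 to 29.6, 28.6 and 25.4 FPKM (0.54, SE 0.14, adjusted p = 0.0128), again with no overlap.

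EIF2B1, the gene of the alpha subunit, was the most abundant at 36.5, 38.9 and 35.9 FPKM in control and 33.2, 31.7 and 30.2 FPKM in mimic samples. The groups did not overlap but the gene was not called (-0.22, SE 0.12, adjusted p = 0.149), and its value was 0.10 after median-of-ratios scaling. EIF2B2 and EIF2B5, for the beta and epsilon subunits, had log2 fold changes of 0.16 and -0.22 and were not called. EIF2B3 over EIF2B5, the genes of the catalytic pair, was 0.404, 0.436 and 0.540 in control and 1.10, 1.04 and 1.05 in mimic samples (exact permutation p = 0.1). This pair was chosen after the values were seen, so its p-value lends no support to a difference. EIF2A and EIF2D, which encode factors able to deliver initiator tRNA without eIF2, were not called, with log2 fold changes of 0.05 and -0.32. EIF2D was called lower on a total without mitochondrial genes (-0.29, adjusted p = 0.0414), after quantile normalization (-0.31, adjusted p = 0.0357) and without mimic sample 1 (-0.40, adjusted p = 0.0386), and was at 0.01 after median-of-ratios scaling. EIF2A, the more abundant, was at 53.1, 48.8 and 59.1 FPKM in control and 46.7, 59.3 and 61.5 FPKM in mimic samples, which overlapped.

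Of the 6 tested genes grouped with the factors of scanning and start codon recognition, 1 fell, 1 rose and 4 were not called. The gene that rose, EIF1AD, is not itself the gene of one of these factors. EIF5 (chromosome 14, 103333544 to 103345025, plus strand), the gene with the 8mer and 7mer-m8 printed above, encodes the factor that makes eIF2 hydrolyse its GTP. It was at 23.6, 20.0 and 24.4 FPKM in the controls and at 10.6, 9.73 and 12.1 FPKM in mimic samples (-1.03, SE 0.14, adjusted p = 0.00061). The groups did not overlap, and the value after median-of-ratios scaling was -0.72. EIF5B, the gene of the subunit-joining GTPase, was at 27.5, 25.2 and 26.3 FPKM in control and 22.0, 30.9 and 33.8 FPKM in mimic samples and was not called (0.11, SE 0.17). EIF5 over EIF5B, a pair chosen after the values were seen, was 0.859, 0.795 and 0.929 in control and 0.483, 0.315 and 0.359 in mimic samples, with no overlap (exact permutation p = 0.1). Given that choice, the p-value of this ratio is no support for a difference.

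EIF1AD, which encodes a protein with an eIF1A-like domain, was at 11.9, 12.4 and 11.9 FPKM in control and 14.9, 17.1 and 20.2 FPKM in mimic samples (0.50, SE 0.14, adjusted p = 0.019). The groups did not overlap, but the adjusted p was 0.0635 without control sample 1 and 0.0515 without control sample 3. EIF1, the gene of the factor that guards start codon choice, was the most abundant of these genes at 76.0, 74.1 and 58.9 FPKM in control and 87.1, 52.4 and 45.4 FPKM in mimic samples. Its mimic values spanned the control range, and it was not called (-0.22, SE 0.24, adjusted p = 0.467), though without mimic sample 1 it was at -0.50 with adjusted p = 0.0306. Its paralog EIF1B had a log2 fold change of -0.07, and the ratio of EIF1 to EIF1B, 2.15 to 2.30 in control and 1.65 to 2.64 in mimic samples, overlapped (exact permutation p = 0.5). EIF1AX, the gene of eIF1A, had 0.07 and was not called, and was called higher after median-of-ratios scaling (0.38).

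The eIF3 complex, a large scaffold on the small ribosomal subunit, had 8 of its 14 genes higher and 1 lower. Its median log2 fold change was 0.41, and after median-of-ratios scaling 11 were higher and 0 lower. The genes were divided by conservation, not by place in the complex, after the values were seen. The conserved core genes EIF3A, EIF3B, EIF3C, EIF3CL, EIF3G and EIF3I had 5 of 6 higher with a median of 0.68. This count takes EIF3C and EIF3CL as separate genes. The other 8 genes had 3 higher and 1 lower with a median of 0.26. EIF3C and EIF3CL are near-identical copies on chromosome 16, so how fragments were divided between them is uncertain.

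EIF3C was at 36.7, 37.5 and 37.3 FPKM in control and 70.4, 65.7 and 63.5 FPKM in mimic samples (0.83, SE 0.12, adjusted p = 0.000715), and EIF3CL had 0.96 (SE 0.12, adjusted p = 0.000332). Their summed FPKM was 77.1, 77.5 and 76.7 FPKM in control and 150.1, 144 and 139.7 FPKM in mimic samples. The sum was nearly level within the control group, and the mimic samples lay far above it. FPKM are per length, and the genes have 6982 and 3091 annotated bases, so the sum too depends on how fragments were divided. EIF3B (chromosome 7, 2354086 to 2380745, plus strand), which encodes a scaffold subunit of the core, went from 65.3, 62.4 and 53.6 to 124, 92.6 and 92.7 FPKM (0.76, SE 0.16, adjusted p = 0.00525). EIF3I, the gene of a beta-propeller core subunit and the most abundant of the complex, went from 110.1, 106 and 95.6 to 177, 148 and 147 FPKM (0.59, SE 0.14, adjusted p = 0.00863). In both genes mimic sample 1 was the highest, and no mimic sample overlapped a control sample.

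EIF3L is a subunit gene outside the conserved core. It was at 65.8, 70.4 and 72.5 FPKM in control and 117, 123 and 109.8 FPKM in mimic samples (0.74, SE 0.13, adjusted p = 0.00169). The groups did not overlap. The higher calls of EIF3A (0.47), which encodes the largest subunit, EIF3D (0.39), which encodes a subunit that can bind the cap itself, and EIF3J (0.44), which encodes a loosely bound subunit, were less steady. Each was lost without at least 4 of the 6 samples in turn: adjusted p was 0.0608 to 0.102 for EIF3A when any sample other than mimic 1 was left out, 0.0756 to 0.18 for EIF3D without control sample 1 or 2 or mimic sample 1 or 2, and 0.0642 to 0.0923 for EIF3J without control sample 2 or 3 or mimic sample 2 or 3. In none of these 3 genes did the groups overlap.

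EIF3H is an 8mer-bearing subunit gene outside the conserved core. It was at 48.7, 42.8 and 37.5 FPKM in control and 27.6, 31.7 and 31.9 FPKM in mimic samples (-0.49, SE 0.14, adjusted p = 0.0209). It fell on the deposited scale with no overlap, and after median-of-ratios scaling it was not called (-0.17, adjusted p = 0.309). The adjusted p was 0.0957 without control sample 1 and 0.0614 without control sample 2. Within each sample the ratio of EIF3B to EIF3H, chosen after the values were seen, was 1.34, 1.46 and 1.43 in control and 4.49, 2.92 and 2.91 in mimic samples (exact permutation p = 0.1). Picked from these values, the pair gives no test of whether the complex changed in 1 proportion. The remaining 5 genes, EIF3E, EIF3F, EIF3G, EIF3K and EIF3M, had log2 fold changes of -0.13, 0.19, 0.27, 0.11 and 0.33 and were not called, and EIF3F, EIF3G and EIF3M were called higher after median-of-ratios scaling.

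Of the 3 tested genes of cap-binding proteins and their transporter, EIF4E rose and the others were not called. EIF4E (chromosome 4, 98871684 to 98930637, minus strand), which encodes the cap-binding subunit of eIF4F, was at 4.43, 5.24 and 5.44 FPKM in the controls and at 6.74, 12.6 and 12.0 FPKM in mimic samples (0.94, SE 0.23, adjusted p = 0.00974). The groups did not overlap, and mimic sample 1 lay close to the controls. Leaving out sample 3 of both groups gave 0.87 with adjusted p = 0.0688, and no sample left out on its own ended the call. EIF4E2, which encodes a cap-binding protein that does not bind eIF4G and acts in repression, was at 21.5, 20.4 and 19.8 FPKM in control and 26.9, 25.2 and 19.2 FPKM in mimic samples. It was not called (0.19, SE 0.15), and was called higher after median-of-ratios scaling (0.51). EIF4E over EIF4E2 was 0.207, 0.257 and 0.276 in control and 0.251, 0.501 and 0.623 in mimic samples, which overlapped (exact permutation p = 0.3). EIF4ENIF1, the gene of the eIF4E transporter, had -0.21 and was not called, and EIF4E3 was below the minimum, with 0.980 ± 0.0738 FPKM in control and 0.894 ± 0.0939 FPKM in mimic samples (SD, n = 3).

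The eIF4G scaffold genes gave the largest difference between paralogs. EIF4G1 (chromosome 3, 184314495 to 184335358, plus strand), the main scaffold that joins eIF4E, eIF4A and eIF3, was at 67.2, 73.2 and 70.3 FPKM in the controls and at 192, 201 and 167 FPKM in mimic samples. The groups were far apart, and the gene had the highest log2 fold change of the 44 tested members (1.40, SE 0.13, 95% interval 1.09 to 1.71, adjusted p = 0.000129). EIF4G3, which encodes a close homolog with the same binding partners, went the other way, from 43.4, 39.3 and 35.5 to 23.4, 27.3 and 23.4 FPKM (-0.66, SE 0.14, adjusted p = 0.00431). It also fell after median-of-ratios scaling (-0.34), and the groups did not overlap. EIF4G2, which encodes a homolog that lacks the eIF4E-binding part, was at 100.2, 90.6 and 93.2 FPKM in control and 124, 129 and 104 FPKM in mimic samples. Its groups did not overlap, but it was not called (0.32, SE 0.14, adjusted p = 0.0836). It was called higher under 5 of the 18 alternative settings: after median-of-ratios scaling in both versions (0.65 and 0.54), on a total without mitochondrial genes (0.34, adjusted p = 0.0274), with the replicate block and a GC and length correction (0.56, adjusted p = 0.00718), and without mimic sample 3 (0.41, adjusted p = 0.0405).

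A ratio of genes within a sample does not depend on the scaling between samples. EIF4G1 over EIF4G3 was 1.55, 1.86 and 1.98 in control and 8.19, 7.38 and 7.13 in mimic samples. EIF4G1 made up 31.9%, 36.0% and 35.3% of the FPKM of the 3 genes in control and 56.6%, 56.4% and 56.7% in mimic samples. The share of EIF4G3 went from 20.6%, 19.4% and 17.9% to 6.91%, 7.64% and 7.95%. None of these groups overlapped (exact permutation p = 0.1 each), and EIF4G1 took the place of EIF4G2 as the most abundant of the 3.

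**Figure D3:**
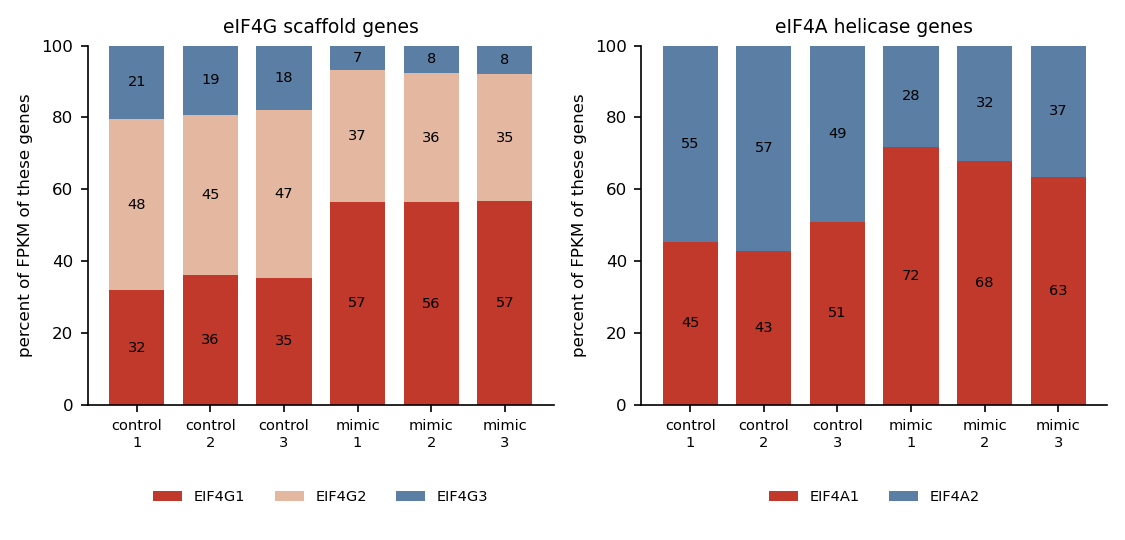
Percent of the summed FPKM of the eIF4G genes (left) and of EIF4A1 plus EIF4A2 (right) taken by each gene in each of the 6 samples, as stacked bars that add up to 100%. EIF4G1 takes 31.9% to 36.0% in control and 56.4% to 56.7% in mimic samples, and EIF4A2 takes 49.0% to 57.2% in control and 28.3% to 36.5% in mimic samples.

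The helicase genes also differed between paralogs. EIF4A2 (chromosome 3, 186783205 to 186789900, plus strand), which encodes a DEAD-box helicase of eIF4F, was at 144, 138 and 131 FPKM in the controls and at 71.4, 68.1 and 58.6 FPKM in mimic samples (-1.06, SE 0.14, adjusted p = 0.000422). The groups were far apart, and the value after median-of-ratios scaling was -0.74. Its close paralog EIF4A1, which takes the same place in eIF4F, was at 119, 103 and 136 FPKM in control and 181, 144 and 102 FPKM in mimic samples. These overlapped, and EIF4A1 was not called under any of the 18 alternative settings (0.22, SE 0.22, 95% interval -0.29 to 0.73). After median-of-ratios scaling EIF4A1 lay just past the threshold (0.55, adjusted p = 0.0506). EIF4A2 over EIF4A1 was 1.21, 1.34 and 0.962 in control and 0.394, 0.471 and 0.575 in mimic samples, with no overlap (exact permutation p = 0.1). The read-through gene SENP3-EIF4A1, which shares exons with EIF4A1, was listed at 9.18, 28.3 and 0.114 FPKM in control and 37.5, 29.2 and 49.2 FPKM in mimic samples, so the level of EIF4A1 depends on how shared fragments were assigned.

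Both helicase genes host small nucleolar RNAs in their introns, and these are listed as genes of their own. The tested entry of SNORA63 in EIF4A2 fell by 2.47 on the log2 scale, and SNORA4 of the same gene fell from 31.2, 27.3 and 29.3 to 8.49, 7.27 and 5.37 FPKM. On the log2 scale both changed by more than the host did. By contrast, SNORD10 and SNORA67 of EIF4A1 fell by 2.75 and 0.91 while that host was not called. Another SNORA63 entry, SNORD2 and SNORA81 in EIF4A2, and SNORA48 in EIF4A1, were below the minimum and not tested. These RNAs are short and not polyadenylated, and what share of them an mRNA library holds is not known here.

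EIF4B and EIF4H, the genes of the cofactors that stimulate the helicase, rose. EIF4B was at 82.5, 107 and 103 FPKM in control and 176, 171 and 152 FPKM in mimic samples (0.77, SE 0.15, adjusted p = 0.00361), with no overlap. EIF4H was at 99.8, 101 and 81.5 FPKM in control and 167, 128 and 110.0 FPKM in mimic samples (0.51, SE 0.18, adjusted p = 0.0477). Its groups did not overlap, but the call lay at the threshold, with adjusted p from 0.0764 to 0.142 when any sample other than mimic 3 was left out. EIF4A3, which encodes the helicase of the exon junction complex, had 0.03 and was not called.

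EIF5A and EIF6 encode factors named for initiation that are known to act at other steps. EIF5A (chromosome 17, 7306999 to 7312463, plus strand), the hypusine-carrying factor of elongation and termination, was at 143, 154 and 134 FPKM in the controls and 369, 280.1 and 249 FPKM in mimic samples (1.04, SE 0.18, adjusted p = 0.00166). The mimic samples varied more than the controls, and the lowest of them lay well above the highest control. Its paralog EIF5A2, with the 8mer printed above, was low, at 2.13, 2.42 and 2.60 FPKM in control and 1.79, 1.63 and 1.20 FPKM in mimic samples (-0.51, SE 0.17, adjusted p = 0.0351).

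EIF5A2 fell on the deposited scale, but was not called after median-of-ratios scaling (-0.25, adjusted p = 0.203) and had 0.17 after quantile normalization. Its adjusted p was 0.0542 to 0.1 when any sample other than mimic 1 was left out. EIF5A over EIF5A2 was 67.0, 63.8 and 51.3 in control and 206, 171 and 208 in mimic samples (exact permutation p = 0.1), so the pair moved apart within every mimic sample. EIF5AL1, a gene nearly identical to EIF5A, was below the minimum (0.293 ± 0.0445 FPKM in control and 0.616 ± 0.0707 FPKM in mimic samples, SD, n = 3), and its fragments cannot be told from those of EIF5A with certainty. EIF6, which encodes the factor that keeps the large subunit from joining early, was at 60.3, 62.3 and 47.0 FPKM in control and 102, 71.6 and 62.2 FPKM in mimic samples. The groups overlapped, and EIF6 was not called (0.45, SE 0.21, adjusted p = 0.101). It was called higher under 6 of the 18 alternative settings: after median-of-ratios scaling in both versions (0.77 and 0.67), on a total without mitochondrial genes (0.47, adjusted p = 0.0302), with the replicate block alone (adjusted p = 0.0332) or with a GC and length correction (0.39, adjusted p = 0.0314), and without mimic sample 3 (0.60, adjusted p = 0.0478).

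**Figure D4:**
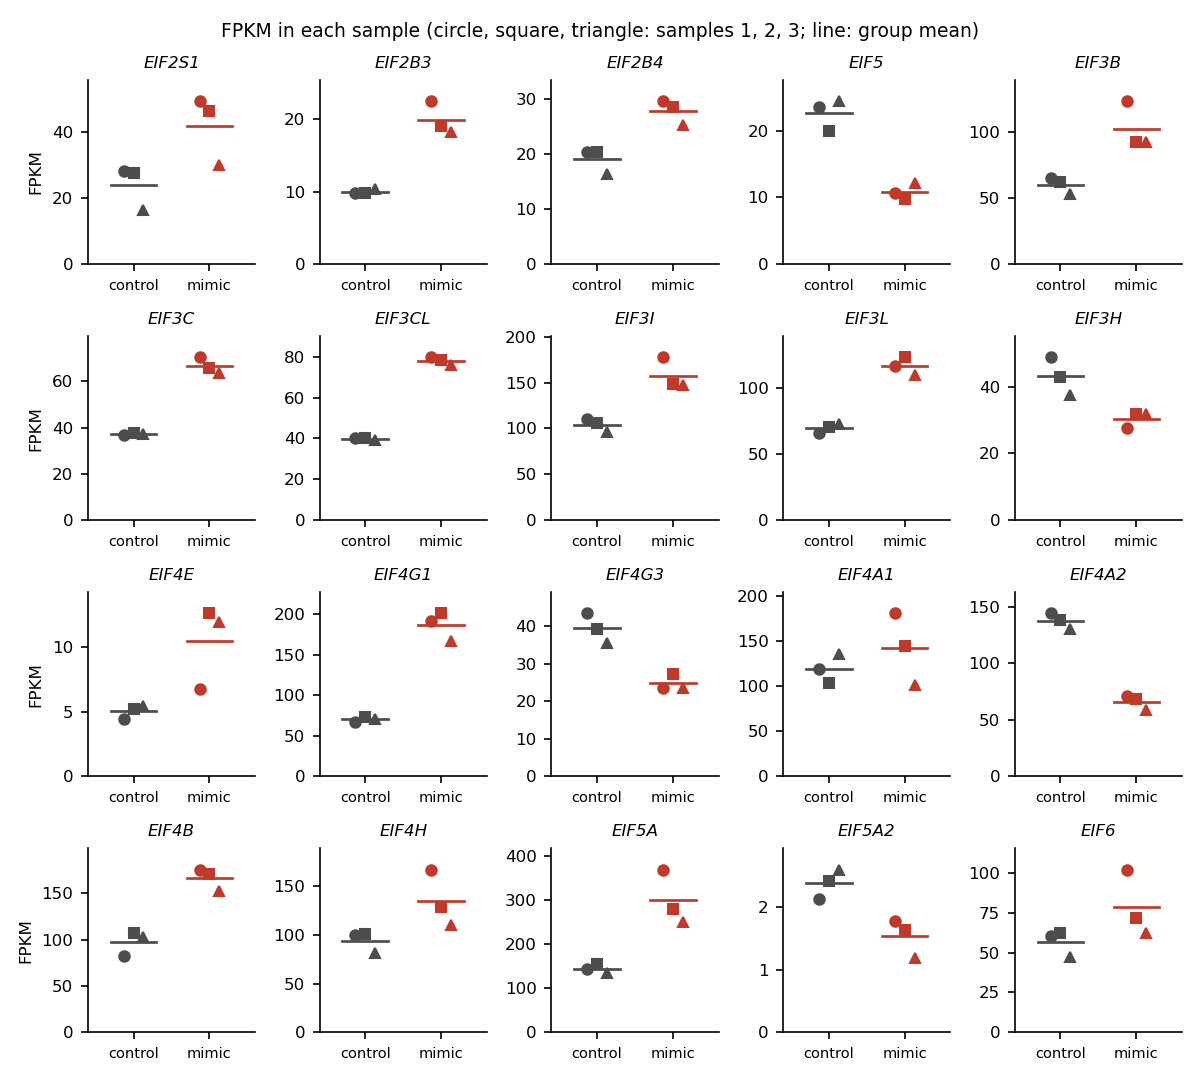
FPKM of 20 initiation factor genes in each sample, 1 panel a gene with its own axis from 0. Grey marks are control and red marks mimic samples, circles, squares and triangles are samples 1, 2 and 3, and lines are group means. EIF4G1 and EIF5A lie higher and EIF4A2, EIF4G3 and EIF5 lower in all 3 mimic samples, while EIF4A1 and EIF6 overlap.

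Of the 4 members not tested, EIF4E1B and EIF1AY were below the minimum with EIF4E3 and EIF5AL1. Counting was not stated to use strand, and several members overlap genes on the other strand. AC068888.1, antisense to EIF4B, fell by 1.59 and AC074117.1, antisense to EIF2B4, fell by 1.52 on the log2 scale, while EIF4B and EIF2B4 rose. REV1, which overlaps the end of EIF5B, fell by 1.48. Some other genes on the opposite strand were called in the direction of the member they overlap: SNX8 rose with EIF3B (0.61), ATP6V1D with EIF2S1 (0.68) and GPS2 with EIF5A (0.50), and RFC4 fell with EIF4A2 (-0.52). Across EIF4ENIF1, which was not called, DRG1 rose (0.46) and SFI1 fell (-0.49). The remaining tested genes on the opposite strand were not called. Those across called members were TMEM234 (-0.07, EIF3I), SPG11 (-0.56, EIF3J), BANF1 (-0.08, EIF1AD), RALY (0.38, EIF2S2) and UTP23 (-0.28, EIF3H). How far these genes share fragments with the members was not tested. Of the 72 pseudogene names left out by the rule, 10 reached a mean of 1 FPKM, and the highest, EIF1P4, was at 11.0 to 14.0 FPKM in control and 1.87 to 3.02 FPKM in mimic samples.

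The other genes of translation were read from 8 lists with 63 genes, of which 59 were tested, with 15 higher and 8 lower. After median-of-ratios scaling 30 were higher and 6 lower. The median was 0.08 on the deposited scale and 0.41 after that scaling. The share of higher calls was above the 12% of all genes tested and the 19.2% of the nearer background on the deposited scale. It was also above their 26.9% and 42.2% after that scaling. On the deposited scale it was smaller than the 40.9% of the initiation factors, and the difference between those lists was not tested. Lower calls made up 39.6% of all genes tested, and 27.4% after that scaling. The counts of single lists below are to be read beside these shares.

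Regulators of eIF2 and eIF4E moved in both directions. Of 8 genes of eIF2alpha kinases, their partners and phosphatase subunits, 3 fell and 1 rose. These counts are near the shares of all genes tested, 39.6% lower and 12% higher. PPP1R15A, which encodes the stress-induced subunit that directs a phosphatase to eIF2alpha, was at 96.2, 100.1 and 104 FPKM in control and 22.0, 21.7 and 20.5 FPKM in mimic samples (-2.20, SE 0.12, adjusted p = 1.58e-05). PPP1R15B, the gene of the constitutive counterpart, went from 83.3, 75.2 and 71.6 to 36.1, 41.7 and 31.0 FPKM (-1.08, SE 0.15, adjusted p = 0.000615). Neither gene's groups overlapped, and both also fell after median-of-ratios scaling (-1.88 and -0.75). Of the 2 tested 4E-BP genes, whose proteins keep eIF4E from eIF4G, EIF4EBP1 rose from 101, 94.7 and 103 to 162, 153 and 136 FPKM (0.59, SE 0.13, adjusted p = 0.00668) and EIF4EBP2 was not called (-0.34, adjusted p = 0.0508). The ratio of EIF4EBP1 to EIF4E, a pair chosen after the values were seen, was 18.1 to 22.8 in control and 11.3 to 24.0 in mimic samples. These overlapped (exact permutation p = 0.4).

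Of 11 genes of mTORC1 and MNK signalling, 3 rose and 1 fell, and after median-of-ratios scaling 8 were higher and 0 lower. DDIT4, which encodes an inhibitor of mTORC1, went from 88.8, 98.3 and 73.6 to 337, 229 and 199.8 FPKM (1.52, SE 0.22, adjusted p = 0.000684). MLST8, the gene of a subunit of the mTOR complexes, had 0.94 (SE 0.14). Of 12 accessory factor genes, 2 rose and 2 fell, and the highest were ABCF1, which encodes an eIF2-binding ABC protein (1.17, SE 0.15), and BZW2, which encodes an eIF5-like protein (1.07, SE 0.13). Of 4 tested genes of poly(A)-binding proteins and partners, PAIP2, an inhibitor of the poly(A)-binding protein, rose (0.55, SE 0.12).

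Of 12 elongation factor genes, 5 rose and 0 fell, among them EEF1G (1.25, SE 0.19) and EEF1B2 (1.00, SE 0.14), which encode subunits of the exchange factor of eEF1A. Of 8 tested termination and recycling genes, 2 rose and 2 fell, the latter the mitochondrial release factor genes MTRF1 (-0.97, SE 0.15) and MTRF1L (-0.49, SE 0.14). MTRF1L was not called after median-of-ratios scaling (-0.19), with adjusted p = 0.0614 when control sample 1 was left out and 0.0581 when control sample 3 was. Neither of the 2 mitochondrial initiation factor genes, MTIF2 and MTIF3, was called.

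**Figure D5:**
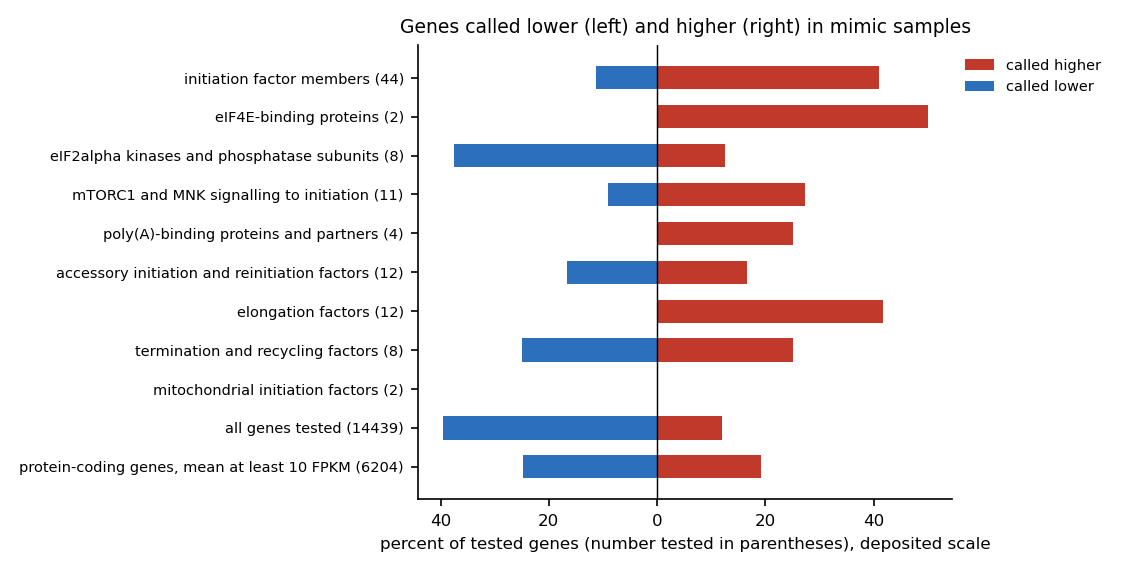
Percent of the tested genes of each list called higher (red, to the right) or lower (blue, to the left) in mimic samples on the deposited scale, with the number tested in parentheses. The initiation factor genes have 40.9% higher and 11.4% lower, against 12% and 39.6% of all genes tested and 19.2% and 24.7% of protein-coding genes whose mean reached 10 FPKM. The shares of the lists change with the scale, as the counts after median-of-ratios scaling show.

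Promoters were compared because many members moved together. RefSeq gave a promoter of 250 bases before and 50 after the start for 41 of the 48 members (GRCh38.p14), and 9 short words were searched on both strands. The palindrome CACGTG, an E-box bound by MYC and related factors, was present in 10 of 41 members (24.4%), against 7.43% of 27305 promoters and 10.6% of the 9435 promoters of tested genes. The 10 are EIF1B, EIF2B3, EIF3F, EIF3K, EIF4A3, EIF4B, EIF4E, EIF4G1, EIF4H and EIF5A2, of which 5 rose and 1 fell. Among all 41 members with a promoter 14 rose and 4 fell, and among the 1000 tested genes with the word in their promoter 17.2% rose and 32.0% fell, against 13.7% and 33.5% of the 9435. CCGGAAGT, an ETS word, was in 19.5% of member promoters against 9.37% of those of tested genes, and CGTGAC, which shares letters with CACGTG where they meet, in 22.0% against 14.3%.

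The remaining words were nearer to the tested genes or absent from the members. GGGCGG, a GC box, was in 68.3% against 70.7%, and CCAAT in 39.0% against 37.2%. TATAAA was in 1 member promoter, that of EIF4A2, which is 2.44% against 5.46%. TGATGCAA, TGACGTCA and the palindrome of the factor NRF1 were in none of the 41, against 0.39%, 3.40% and 2.43% of the promoters of tested genes. These words were chosen with the fold changes known, a match is not a binding site, and no factor was measured at these promoters.

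The promoters of EIF4E and EIF4G1, genes of the cap-binding complex that both rose, are shown because each holds CACGTG at 2 places, in capitals. They were picked after the word counts were seen. Each run gives the 250 bases before the start, 5′ to 3′ on the strand of the gene, with the words starting 225 and 72 bases before the start in EIF4E (chr4:98929134-98929383, minus strand) and 144 and 67 bases before it in EIF4G1 (chr3:184314356-184314605, plus strand).
EIF4E: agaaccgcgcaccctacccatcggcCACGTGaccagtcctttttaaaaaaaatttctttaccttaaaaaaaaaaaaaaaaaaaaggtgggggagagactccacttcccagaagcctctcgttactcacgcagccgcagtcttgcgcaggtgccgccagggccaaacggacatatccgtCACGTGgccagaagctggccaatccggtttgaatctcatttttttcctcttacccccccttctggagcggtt
EIF4G1: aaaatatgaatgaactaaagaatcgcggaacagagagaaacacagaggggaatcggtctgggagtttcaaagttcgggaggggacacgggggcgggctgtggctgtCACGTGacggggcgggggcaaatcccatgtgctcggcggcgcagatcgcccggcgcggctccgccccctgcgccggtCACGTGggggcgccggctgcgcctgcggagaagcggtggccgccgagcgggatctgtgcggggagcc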

How the data were processed

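RNA of 6 samples was measured, 3 with miR-27a-3p mimics and 3 with NC, grouped by the treatment label. The authors deposited 1 FPKM value for each of 58174 genes and sample, per the file headers; libraries were made from total RNA with an mRNA kit, per the labels' protocols. The submitters' processing notes name FastQC, HISAT2 and hg38 (FPKM tool, versions, strand setting and annotation: not given in the sources used here). Values of the series table were checked against the tables of single samples, and 0 differed. FPKM low values were whole multiples of the smallest step in only 11.7% to 15.3% of cases at a tolerance of 1%, so the numbers of reads could not be had back and neither a count test nor a counting interval was used. From the deposited FPKM, log2(FPKM + 0.5) was fitted with limma-trend and robust moderation (limma 3.58.1, R 4.3.3) on the 14439 genes whose mean reached 1 FPKM, with no covariates and Benjamini-Hochberg adjustment at 0.05. The fit was tested on simulated data. Ratios and shares were tested with an exact two-sided permutation test over samples, for which 3 against 3 gives at least p = 0.1.

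The members and lists were chosen with earlier results of these data known. Named genes are, in each complex, the 3 called members of lowest p at most (5 for eIF3) and the member with the highest mean, up to 2 called genes of each other list, and paralogs beside them. EIF3H, EIF5B, EIF4EBP2, the genes inside or antisense to members, and the pairs said to be so were chosen after their values were seen. Median-of-ratios factors were taken over genes above 0 in every sample whose mean reached 1 FPKM; a first version over genes at 1 FPKM or more in every sample was replaced after its results were seen and is given as an alternative. Alternatives were the pseudocount (0.1, 1), the filter (none, a mean of 5 FPKM), the scaling, the moderation, the replicate block and left-out samples. Positions are hg38 as deposited; 3' UTRs are from GENCODE 29, in which 45 of the 48 members have the deposited position, and miRNA and promoter sequences are from RefSeq (GRCh38.p14). For members without a RefSeq promoter, none was used.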

Additional observations from a re-analysis of the deposited data

How the results depend on the processing

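Over 18 alternative settings, 13 of the 23 called members kept their call in every one: EIF2B3, EIF2B4, EIF3B, EIF3C, EIF3CL, EIF3I, EIF3L, EIF4A2, EIF4B, EIF4G1, EIF4G3, EIF5 and EIF5A. The number of higher members was 12 to 25 and that of lower members 3 to 7. Lower members numbered 3 after median-of-ratios scaling, 3 in its other version over genes at 1 FPKM or more in every sample, and 3 with the replicate block and a GC and length correction. With 1 sample left out, higher members numbered 12 to 17 and lower members 3 to 7, the 3 without control sample 1 or control sample 2, and the median was 0.21 to 0.32. The median was 0.57 and 0.47 under the scaling and its other version. Higher calls among the other translation genes went from 15 to 30 and 26 under these, and were 10 to 14 with 1 sample left out. Over all genes, the other version gave 3208 higher and 4546 lower against 3889 and 3953. The other version and every alternative for the other translation genes were added after the data were seen.

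Without a filter 14 members were higher and 4 lower; with sample 3 of both groups left out 12 were higher and 4 lower. Whether the replicate numbers pair the samples is not settled. Deviations from group means correlated at 0.18, -0.05 and 0.22 between samples of the same number. Control samples 1 and 3 were nearest to the mimic sample of their own number, while control sample 2 was nearest to mimic sample 1 (0.13). With the replicate block, 20 members were higher and 4 lower. Single genes changed sign mostly near 0. After median-of-ratios scaling these were EIF2S3 (0.054), EIF2D (0.0052), EIF2B1 (0.097), EIF2B5 (0.095), EIF3E (0.19), EIF4ENIF1 (0.10), EIF1 (0.099) and EIF1B (0.25), and in its other version EIF3E (0.087), EIF4ENIF1 (0.0037) and EIF1B (0.15). Quantile normalization turned EIF4ENIF1 (0.028) and EIF5A2 (0.17). The replicate block with GC and length correction turned EIF3E (0.095), EIF3G (-0.056), EIF3K (-0.042) and EIF1B (0.13). Leaving out sample 3 of both groups turned EIF5B (-0.013). With 1 sample left out, values ranged from -0.024 to 0.17 for EIF2A (below 0 without control sample 2 or mimic sample 3), from -0.19 to 0.18 for EIF4A3 (below 0 without control sample 3 or mimic sample 1), and, below 0 without mimic sample 1, from -0.042 to 0.27 for EIF2B2, from -0.084 to 0.26 for EIF3K and from -0.015 to 0.20 for EIF1AX. EIF5B ranged from -0.013 to 0.29 and was below 0 without mimic sample 3. Calls ended, besides those given in the report, without a filter for EIF2S1, EIF2S2, EIF3A, EIF3D, EIF4H and EIF5A2 (adjusted p 0.0558 to 0.0899), with a mean of 5 FPKM for EIF2S2 and EIF4H (0.0533 and 0.0525), after quantile normalization for EIF2S2 and EIF3D (0.129 and 0.0958), with the block alone for EIF5A2 (0.0555), with the block and correction for EIF3D, EIF3H, EIF5A2 and EIF1AD (0.0599 to 0.331), and without sample 3 of both groups for EIF2S2, EIF3A, EIF3J, EIF4H, EIF5A2 and EIF1AD (0.0599 to 0.191). Calls appeared for EIF3G with mitochondrial genes left out, for EIF3F after quantile normalization, for EIF3M with the block, and for EIF3F and EIF3M with the block and correction. The causes were not tested.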
